A study of Mus musculus with 3 samples.

Results

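Genes of cholesterol synthesis and other targets of the transcription factor SREBP2 were examined in mouse embryonic stem (ES) cells that express the histone variant H2A.Z as a YFP fusion. The members are 8 named genes, listed by symbol as targets of SREBP2, a list drawn up with earlier results of these data known. Of these, 7 were measured among the 15311 genes of the count table, namely Insig1, Srebf2, Mvd, Idi1, Fdft1, Sqle and Cyp51, and Hmgcs1 was not analysed here. All 7 carried the code for the active class, as opposed to the bivalent class, in the authors' deposited table and passed the filter on low counts. Of all 13829 genes that passed this filter, 10984 carried the active code, so the class does not set the members apart.

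The series has 2 libraries from cells with wild-type H2A.Z-YFP and 1 library from cells with H2A.Z.K3R3-YFP, in which 3 lysines of H2A.Z are arginines. Both groups carry a lentiviral transgene under an rtTA-controlled CMV promoter, induced with 1 µg/ml doxycycline, were sorted for YFP, and also express a hairpin that targets endogenous H2A.Z. The protocols name KH2 as the parental line of the transgenic cells while the strain label reads V6.5 (129SvJaexC57BL/6), and they name more than one hairpin without saying which was used here. Cells grew in medium with 10% fetal bovine serum and were plated without feeder fibroblasts for the last passage. Whether the 2 wild-type libraries are separate cultures or clones is not stated, so their spread may be technical, and K3R3 had no replicate. Every p-value rests on that spread, which edgeR here pooled over genes rather than taking from each gene's own pair.

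Animal cells build cholesterol from acetyl-CoA through mevalonate, isoprenoid pyrophosphates, squalene and lanosterol. SREBP2, the product of Srebf2, is made as a membrane protein of the endoplasmic reticulum, where INSIG proteins hold it together with its escort SCAP while sterols are plentiful. When sterols run low the complex moves to the Golgi, where the site-1 and site-2 proteases release the DNA-binding part, which activates the enzymes of the pathway, genes of sterol uptake and also Insig1 and Srebf2 themselves. SREBP proteins bind sterol regulatory elements and commonly act beside the CCAAT-binding factor NF-Y and Sp1.

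The promoters are shown for their sequences and do not bear on the order of the libraries described below. RefSeq promoter windows of GRCm38.p6, from 250 bases before to 50 bases after the transcript start, were matched for Cyp51, Idi1, Insig1, Mvd and Srebf2. Sqle and Fdft1 had no window in the set used. The counts were made on mm9, so these coordinates serve the sequences alone. Each of the 5 windows held a CCAAT box (CCAAT or its reverse complement ATTGG), a motif found in 37.4% of all 32851 windows of this length. The box nearest to the start on its upstream side is printed in capitals with 10 bases on each side, read along the gene's own strand.
Cyp51 (chr5:4104712-4104736, minus strand, 24 bases before the start): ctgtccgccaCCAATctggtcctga
Idi1 (chr13:8885582-8885606, plus strand, 9 bases before the start): ccaaggtgccATTGGctggcgaccg
Insig1 (chr5:28071186-28071210, plus strand, 211 bases before the start): ccctcctcccATTGGctccggcggc
Mvd (chr8:122443435-122443459, minus strand, 22 bases before the start): ggccagcgggCCAATcatatggcag
Srebf2 (chr15:82147124-82147148, plus strand, 130 bases before the start): tcgcgcgccgATTGGctaatgcaag

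The box lay within 24 bases of the annotated start in Cyp51, Mvd and Idi1, and farther upstream in Insig1 and Srebf2. All 5 windows also held a GC box (GGGCGG or CCGCCC), found in 35.7% of all windows and 62.3% of those of tested genes. The E-box CACGTG was in the Insig1 window and in 7.15% of all windows. The sterol regulatory element core TCACNCCAC, on either strand, was in 0 of the 5 windows and in 1.24% of all, which says only that these letters are not in the stretch searched. Matches are descriptions of sequence, since no binding was measured here.

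Counts summed to 21614693 and 25426228 in wild-type replicates 1 and 2 and to 24718223 in K3R3, and levels are given as TMM-normalised CPM, that is counts scaled to a common library size. H2afz, the gene of H2A.Z, read 219, 232 and 222 CPM in these libraries, and such counts do not separate transgene from endogenous reads. Among 14 pluripotency markers, Pou5f1 (Oct4) had 10520, 7437 and 8101 counts in the same order of libraries. The pluripotency markers summed to 8046, 7149 and 5542 CPM, with 4 called lower in K3R3 by edgeR and 0 higher, and 1 called by DESeq2. Over all 13829 genes tested, edgeR called 2.02% higher and 0.542% lower at an adjusted p of 0.05, and DESeq2 called 59 genes. The 15 measured fibroblast markers summed to 1416, 1364 and 1070 CPM, with 1 called higher by edgeR (Thy1, at 39, 30 and 136 counts) and 0 called by DESeq2. Most of each sum came from Fn1, at 1229, 1197 and 864 CPM. Of these 15, 5 were lowest in replicate 1 and highest in K3R3, the order of the sterol genes described next, which 19.5% of all genes tested had. Only 6 of the 15 were higher in replicate 2 than in replicate 1, with a median difference of -0.11 log2 units. K3R3 stood above both wild-type libraries for 9 of the 15, against 33.9% of genes tested, and below both for 2, against 34.2%. The median fitted value of the 15 in K3R3 was 0.44. The 10 primitive endoderm markers summed to 849, 688 and 436 CPM, with 4 called lower by edgeR and 2 called by DESeq2. The part of these cell types in the results was not tested. In bulk RNA a change in the share of a cell type and a change of RNA per cell cannot be told apart.

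The sterol genes formed a graded series, lowest in wild-type replicate 1, intermediate in wild-type replicate 2 and highest in K3R3. That order held for 6 of the 7 members, against 19.5% of all 13829 genes tested, and for 14 of 20 measured enzymes of cholesterol synthesis. K3R3 stood above both wild-type libraries for 7 of 7 members, against 33.9% of genes tested. None of the members, 0 of 7, had K3R3 below both, against 34.2%. Restricted to better-measured genes, those averaging 10 CPM or more, the shares in this order and above both were 12.7% and 20.5%. Counts of 6 and 7 members were also found with DESeq2 size factors, with library totals implied by RPKM and in the deposited RPKM values. The members were proposed with results of these data known, so these shares describe the genes and are no test.

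Of the 7 members, 0 were called higher and 0 lower at an adjusted p of 0.05 (edgeR, quasi-likelihood), against 2.02% of genes tested called higher and 0.542% called lower. At an unadjusted edgeR p under 0.05, 5 stood higher and 0 lower, against 1092 and 460 of all 13829 genes tested. DESeq2 called 0 of the members, against 59 of all genes tested. These all-gene counts are also the background for the gene lists that follow. The median member was 0.46 log2 units above wild type, beside -0.01 over all genes tested. Against replicate 1 alone the median was 0.70 and against replicate 2 alone 0.24, and replicate 2 exceeded replicate 1 by a median of 0.44. The median step inside wild type was thus close in size to the fitted difference.

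**Figure D1:**
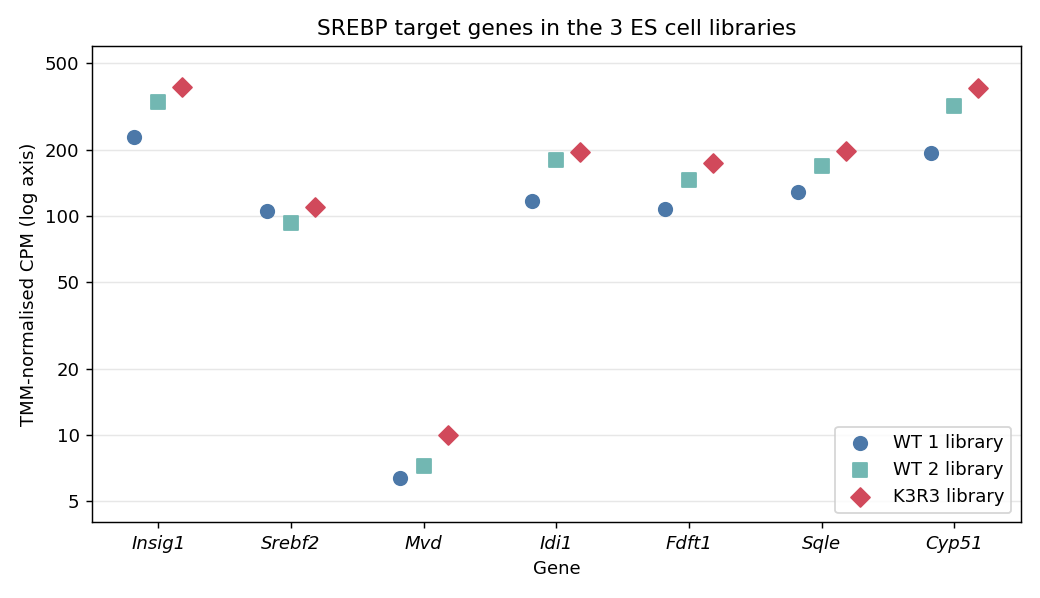
Each symbol is the TMM-normalised CPM of 1 library on a log axis, for the 7 measured members, with circles and squares for wild-type replicates 1 and 2 (WT 1 and WT 2) and diamonds for K3R3. The 3 symbols climb from WT 1 to K3R3 for every gene except Srebf2, where WT 2 is lowest at 93.5 CPM, and Mvd sits far below the others at 6.37 to 10.1 CPM.

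Cyp51 encodes lanosterol 14-alpha-demethylase, the cytochrome P450 that starts the conversion of lanosterol. Its counts were 4085 and 7900 for wild type and 10047 for K3R3, or 194, 318 and 386 CPM. Replicate 1 stood apart on the low side, and K3R3 lay above both wild-type libraries. K3R3 exceeded the wild-type mean of 256 ± 87.6 CPM (SD, n = 2) by 0.59 log2 units (SE 0.19), with an adjusted p of 0.0534 by edgeR's quasi-likelihood test and 0.754 by DESeq2. The SE and the edgeR p rest on a spread pooled over genes, not on the SD of this pair. Cyp51 lay at the edge of the threshold. It was called at an adjusted p of 0.0398 by edgeR when TMM factors were taken from the filtered genes alone, and at 0.0103 with library totals implied by RPKM. The ratio of replicate 2 to replicate 1 was 1.64 (exact conditional 95% interval 1.58 to 1.70) and that of K3R3 to replicate 2 was 1.21 (1.18 to 1.25). These intervals cover counting error only, so the libraries differed by more than counting, and the larger step lay inside wild type.

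Insig1 encodes the sterol-sensing anchor that retains SCAP and SREBP in the endoplasmic reticulum and is itself an SREBP target. Its level was 231 and 332 CPM for wild type against 388 CPM for K3R3. With a fitted value of 0.46 (log2, SE 0.18) its edgeR adjusted p of 0.208 did not pass. Replicate 2 lay 1.44-fold above replicate 1 (interval 1.39 to 1.49), a larger step than the 1.17-fold (1.13 to 1.20) from replicate 2 to K3R3. Per length it was the most abundant of the 7, with deposited RPKM values of 56.2, 82.0 and 104.

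Idi1, Fdft1 and Sqle lie in sequence around the branch into sterols. Idi1, the isopentenyl diphosphate isomerase, stood at 118 and 180 CPM for wild type against 197 CPM for K3R3. Here K3R3 was close to replicate 2, with a ratio of 1.09 (interval 1.05 to 1.14), while replicate 2 was 1.53-fold above replicate 1 (1.46 to 1.61). Fdft1, squalene synthase, which commits farnesyl units to sterols, stood at 107 and 146 CPM against 174 CPM. The ratio of K3R3 to replicate 2 was 1.19 (1.14 to 1.25). Sqle, squalene monooxygenase, a rate-limiting oxidation step, stood at 128 and 169 CPM against 198 CPM, with a corresponding ratio of 1.17 (1.12 to 1.22). All 3 genes had K3R3 above both wild-type libraries, and replicate 1 was the lowest library in each. Fitted log2 differences were 0.40 (SE 0.20) for Idi1, 0.46 (SE 0.20) for Fdft1 and 0.41 (SE 0.20) for Sqle, with adjusted p of 0.419, 0.297 and 0.398 by edgeR.

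Mvd kept the order of the libraries at a low level, while Srebf2 departed from it. Mvd, mevalonate diphosphate decarboxylase, was low, at 134 and 180 counts for wild type and 262 for K3R3, or 6.37, 7.25 and 10.1 CPM. The ratio of its replicate 2 to replicate 1 was 1.14, with an interval that includes equality (0.905 to 1.43). K3R3 was 1.39-fold above replicate 2 (1.14 to 1.69). These wide intervals also include the corresponding ratios of Sqle and Fdft1, so the counts do not set Mvd apart from them. Its fitted log2 value was 0.56 (SE 0.38), with an edgeR adjusted p of 0.724. Srebf2, the gene of the activator, stood at 105 and 93.5 CPM for wild type against 111 CPM for K3R3. Its order differed, with replicate 2 lowest, and K3R3 exceeded replicate 1 by a ratio of 1.05 with an interval that includes equality (0.991 to 1.11). The fitted value, 0.15 in log2 (SE 0.22), was the smallest of the 7, with an edgeR adjusted p of 0.981.

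The wild-type pair was farther apart than K3R3 was from replicate 2 for 5 of the 7 members, namely Cyp51, Insig1, Idi1, Fdft1 and Sqle. The same held for 7013 of all 13829 genes tested and for 4553 of the 8521 averaging 10 CPM or more. Such a relation is thus not particular to the members. Differences between the replicates ranged from -0.17 log2 units for Srebf2 to 0.71 for Cyp51, and those between K3R3 and replicate 2 from 0.13 for Idi1 to 0.47 for Mvd. Over all genes tested the replicates differed by a median of 0.01, with an interquartile range of -0.26 to 0.25. All members but Mvd and Srebf2 lay above that range. Replicate 1 also had the smallest count total, and the part of depth in this spread was not tested.

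**Figure D2:**
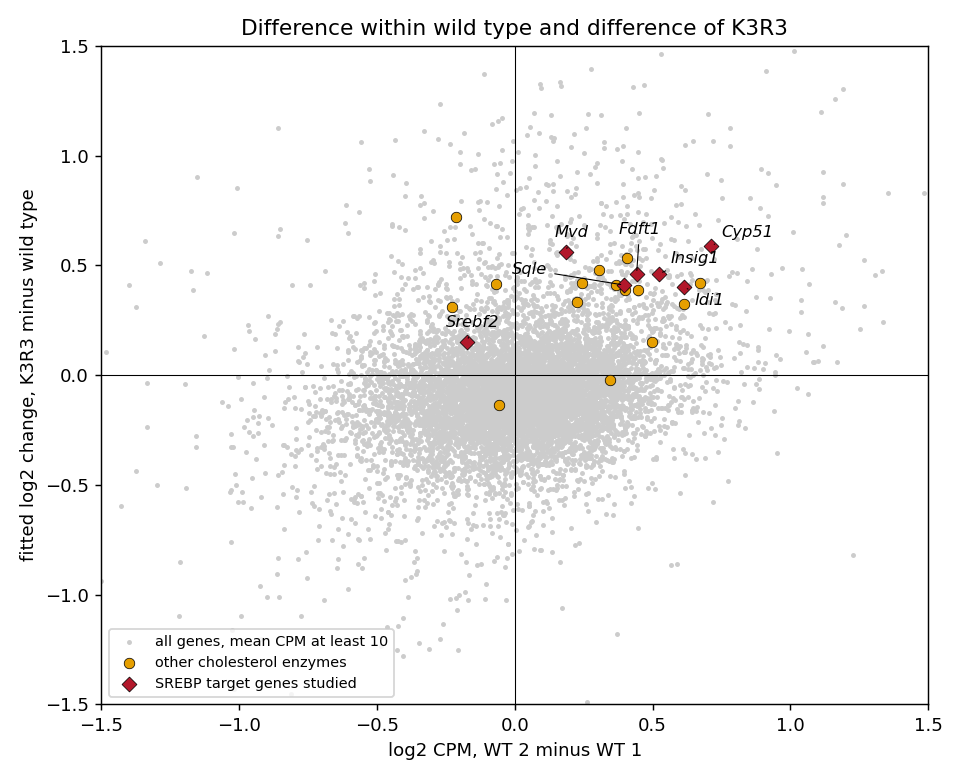
The horizontal axis is log2 CPM of WT 2 minus WT 1 and the vertical axis the fitted log2 change of K3R3 against both. Grey dots are 8521 genes averaging 10 CPM or more, of which 31 fall outside the axes, and orange circles are the other cholesterol enzymes at any level. Of the 7 members (red diamonds), 6 lie right of 0 and all lie above 0, with Cyp51 farthest right at 0.71 and Srebf2 left of 0 at -0.17.

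Most other enzymes of the pathway also stood highest in K3R3, with 12 of 15 above both wild-type libraries. The section counts that follow include the members. In the mevalonate section, from acetyl-CoA to farnesyl pyrophosphate, 7 of 7 measured genes had a fitted value above 0, with a median of 0.42, and edgeR called 0 (2 at an unadjusted p under 0.05, DESeq2 0). In the section from squalene to cholesterol 11 of 13 did, with a median of 0.39, and edgeR called 0 (5 at an unadjusted p under 0.05, DESeq2 0). Against replicate 2 alone these medians were 0.35 and 0.22, and against replicate 1 alone 0.61 and 0.62. Over the 20 enzymes together, CPM summed to 1831 and 2484 in wild type and 2799 in K3R3. The sum thus grew more between the wild-type replicates than from replicate 2 to K3R3.

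In the mevalonate section Fdps, farnesyl pyrophosphate synthase, read 80.3 and 95.1 CPM against 117 CPM (log2 0.42). Mvk and Pmvk, the kinases of mevalonate and phosphomevalonate, had wild-type values near each other, 2.76 and 2.38 CPM and 12.7 and 12.1 CPM, and K3R3 at 4.23 and 16.6 CPM. Like their neighbour in the pathway, Mvd, they had K3R3 above both wild-type libraries. Mvk and Mvd rest on few counts, so the distance between their wild-type libraries is only loosely known. Acat2, acetoacetyl-CoA thiolase, instead had K3R3 between the replicates, at 96.4 CPM against 72.1 and 102 CPM, although in RPKM it was above both (22.4 and 32 against 32.8).

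Among the sterol enzymes, Sc4mol, the sterol C4-methyl oxidase now named Msmo1, was highest per length, with RPKM values of 69, 112 and 131. Its replicates differed by 0.67 log2 units and K3R3 stood only 0.12 above replicate 2. Hsd17b7, a ketosteroid reductase of C4 demethylation, gave the same picture with 0.61 and 0.05. Lss (lanosterol synthase), Nsdhl, Sc5d and Dhcr7, the last being the reductase of the final step of one branch, were each lowest in replicate 1 and highest in K3R3, with fitted differences of 0.39, 0.33, 0.48 and 0.41. Tm7sf2 followed the same order at a low level, 4.19, 5.72 and 6.49 CPM. Exceptions were Ebp, the sterol isomerase, with K3R3 below both wild-type libraries at 20.5 CPM against 23.0 and 22.1 CPM (between them in RPKM), and Lbr, with K3R3 between them at 349 CPM against 312 and 396 CPM. The lamin B receptor encoded by Lbr is also a structural protein of the nuclear envelope. None of the enzymes named here was called by edgeR.

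**Figure D3:**
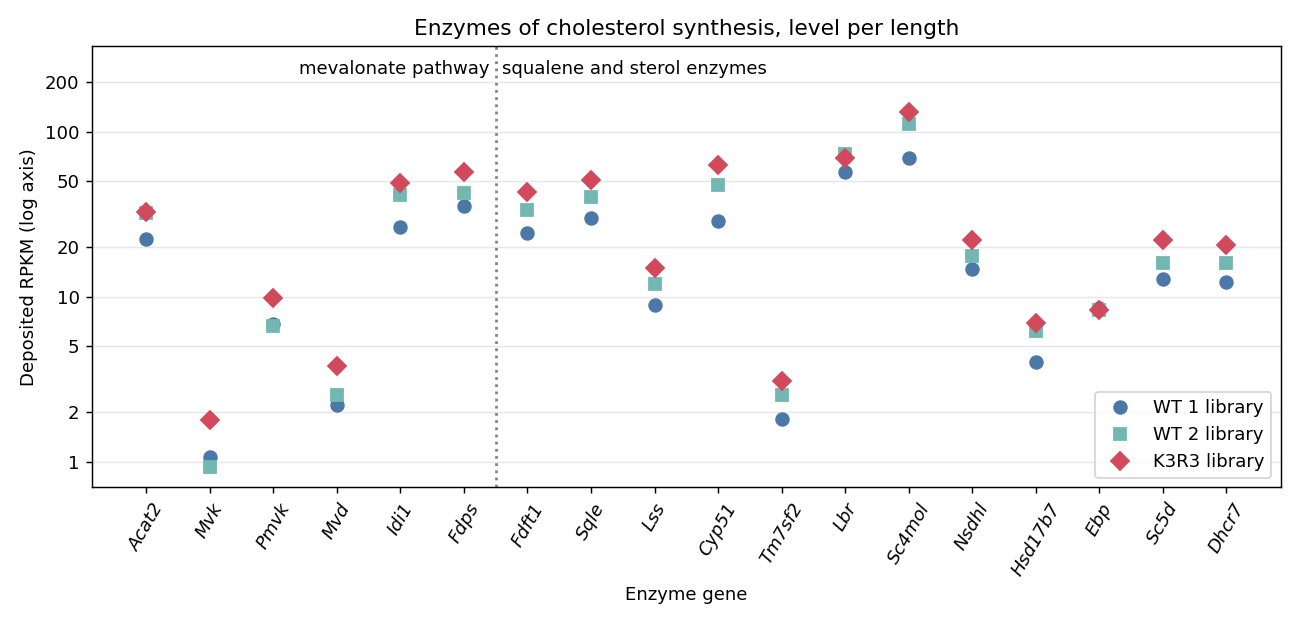
Deposited RPKM on a log axis for 18 of the 20 measured enzymes, in pathway order from left to right, with 1 symbol per library. K3R3 diamonds are uppermost for most genes, exceptions in RPKM being Lbr and Ebp, and levels run from 0.936 RPKM for Mvk to 131 RPKM for Sc4mol.

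Genes that control SREBP showed no common direction. Of 13 measured, including Insig1 and Srebf2, edgeR called 0 in either direction (1 higher, Insig1, and 2 lower at an unadjusted p under 0.05, DESeq2 0), and the median was -0.01. The order of the sterol genes was seen in 2 of them, or in 4 with library totals implied by RPKM, where the median was 0.12. Scap, the escort protein, read 16.4 and 11.6 CPM for wild type against 14.1 CPM for K3R3, with the K3R3 value between the replicates. Insig2, the sterol-sensing paralogue of Insig1, read 26.7 and 24.5 CPM against 27.7 CPM, and Srebf1 7.80 and 6.49 CPM against 7.53 CPM. Mbtps1 (site-1 protease) read 178 and 177 CPM against 171 CPM. In RPKM, K3R3 was above both wild-type libraries for Mbtps1 (26.2 and 26.4 against 27.7) and for Srebf1 (1.17 and 0.985 against 1.24). Mbtps2 (site-2 protease) read 97.1 and 114 CPM against 75.6 CPM (log2 -0.48; edgeR adjusted p = 0.361). Rnf145, a ubiquitin ligase that acts on SCAP, was also below both wild-type libraries, at 55.9 CPM against 88.4 and 80.04 CPM (log2 -0.59; adjusted p = 0.213 by edgeR). In CPM Rnf139, Faf2 and Erlin1 lay between the replicates and Erlin2 below both, positions that RPKM changes for Faf2 and Erlin2, with log2 differences from -0.19 to -0.01.

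Genes of sterol uptake and transport were mixed. Stard4, a cytosolic sterol carrier under SREBP2 control, read 43.3 and 70.5 CPM against 71.6 CPM, so K3R3 lay near replicate 2 and replicate 1 was low. Npc1, the lysosomal cholesterol exporter, read 69.3, 78.9 and 76.4 CPM, although in RPKM K3R3 was above both (8.56 and 9.90 against 10.4). Of the 11 genes 1 was called higher and 0 lower by edgeR, with 0 by DESeq2, and the list median was 0.07, or 0.02 against replicate 2 alone.

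The fatty acid branch, which SREBP1 mainly drives, was mixed. Of 14 genes edgeR called 0 (1 higher, Acss2, and 0 lower at an unadjusted p under 0.05, DESeq2 0), and the median was 0.11, or -0.04 against replicate 2 alone. Acss2 read 6.95 and 7.98 CPM for wild type against 13.9 CPM for K3R3 (log2 0.89). Fitted values were above 0 for 10 of the 14, against 6644 of all 13829 genes tested. K3R3 exceeded replicate 1 for 12 and replicate 2 for 7, against 6881 and 6916 of all genes tested. Acly (ATP citrate lyase) read 443 and 440 CPM for wild type against 446 CPM for K3R3, and Acaca (acetyl-CoA carboxylase) 128 and 138 CPM against 129 CPM. In RPKM, K3R3 was above both wild-type libraries for Acaca (9.11 and 9.97 against 10.1). Fasn (fatty acid synthase) read 117 and 96.6 CPM against 121 CPM. The desaturase Scd1 had replicate 1 low, at 171 CPM, with replicate 2 at 269 and K3R3 at 238 CPM, whereas its paralogue Scd2 followed the order of the enzymes at 803, 964 and 1104 CPM.

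The list of LXR targets and sterol efflux leaned the other way within wild type. Oxysterols switch LXR targets on when sterols are abundant, and the list also holds Nr1h2, the gene of an LXR itself. Of 7 tested, 6 were lower in replicate 2 than in replicate 1, with a median difference of -0.22. Over all genes tested, 51.1% were higher in replicate 2. Of the 7, edgeR called 0 in K3R3 (0 higher and 1 lower at an unadjusted p under 0.05, DESeq2 0). Abca1, the cholesterol exporter, read 48.4 and 32.1 CPM for wild type against 27.2 CPM for K3R3, the reverse order of the enzymes (log2 -0.56 with SE 0.29; edgeR adjusted p = 0.437). Abcg1 followed at 13.8, 11.8 and 9.53 CPM (log2 -0.42). Apoe read 75.02, 60.1 and 60.4 CPM and Mylip, a ubiquitin ligase, 9.66, 8.30 and 9.37 CPM, both with K3R3 between the replicates in CPM, while in RPKM Mylip was above both. The list median was -0.16, and 0.03 against replicate 2 alone, so its sign rested on replicate 1. The 14 genes of the non-sterol isoprenoid branch had a median of -0.04 in K3R3 and -0.10 within wild type, with 0 called by edgeR, 0 at an unadjusted p under 0.05 and 0 called by DESeq2. Their median was 0.09 with library totals implied by RPKM.

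**Figure D4:**
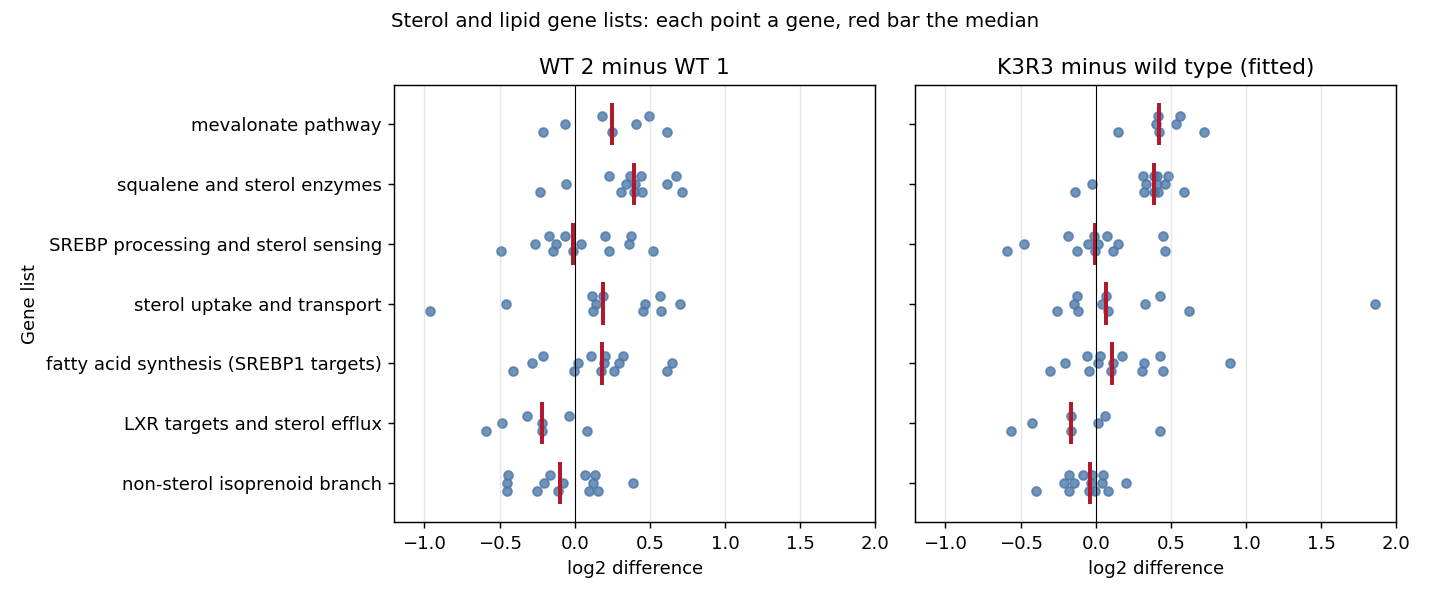
Each point is a gene of the named list, placed by its log2 difference between the wild-type replicates (left) or by the fitted log2 change of K3R3 (right), and red bars are list medians. Medians of the mevalonate and the squalene and sterol lists are 0.24 and 0.40 on the left and 0.42 and 0.39 on the right, whereas the LXR median lies at -0.22 and -0.16.

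The authors' deposited table gave none of the 7 members an unadjusted p under 0.05, with values between 0.194 for Fdft1 and 0.534 for Srebf2. Its log2 column is headed K3R3 against wild type, and in the authors' deposited table Cyp51 has -0.58 and Insig1 -0.45. These signs are opposite to the direction of the count columns, in which K3R3 is higher. The deposited log2 values were negative for 18 of the 20 enzymes, and every direction given here comes from the counts and so rests on the names of their columns.

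Outside the members, the 5 genes nearest to their mean profile over the 3 libraries, by Euclidean distance of centred log2 CPM among 8515 genes averaging 10 CPM or more, were Thbs2, Gm17296, Sh3bgrl2, Usp40 and Sccpdh, at distances of 0.0083 to 0.0269. Of the other enzymes, Dhcr7 ranked 7 by this measure, Lss 16, and Sc5d 35, while Ebp ranked 5011. A profile over 3 libraries is a coarse measure of likeness.

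Reads of overlapping genes limit a few values: whether counting used strand is not given in the sources used here, and without it reads of such a pair cannot be told apart. In GENCODE vM21, exons on the opposite strand share 774 bases with Fdft1 (Ctsb, 18.3% of the Fdft1 exons), 323 bases with Idi1 (Gm48574, 9.22%) and 166 bases with Cyp51 (Akap9, 3.76%). Gm48574 was not among the genes tested, so no value stands beside Idi1. Ctsb, the protease cathepsin B, read 174 and 161 CPM for wild type against 167 CPM for K3R3, and Akap9 read 88.5, 94.1 and 84.0 CPM, neither in the order of the sterol genes.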

How the data were processed

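Polyadenylated RNA of 3 ES cell libraries was measured by RNA-seq, with strand-specific library preparation per the labels' protocols. The authors' table holds whole-number counts for each gene, and the submitters' processing notes list HTSeq 0.5.4p1 and build mm9. The authors also gave RPKM and a gene length. The deposited fold ratio, its log2 value and the unadjusted p-value are the authors' own comparison, and DESeq 1.10.1 appears in the submitters' processing notes. The aligner and annotation are not given in the sources used here.

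Counts were tested with edgeR 4.0.16 in R 4.3.3 by its quasi-likelihood test (two-sided), and p-values were adjusted by Benjamini-Hochberg over the 13829 genes whose mean reached 0.5 CPM. TMM factors came from all rows. The spread came from the wild-type pair, with 1 residual degree of freedom and an infinite prior. The single K3R3 library is thus taken to vary as wild type does. Because the prior was infinite, the edgeR p and SE rest on a spread pooled over genes and not on a gene's own pair. Differences against 1 replicate or between replicates are log2 CPM with a prior count of 1 and have no test. Alternatives were DESeq2 1.42.0 and its size factors, library totals implied by RPKM, the likelihood ratio test, other filters and leaving out each wild-type replicate. TMM factors from the filtered genes alone were added after seeing the data. The scripts were tested on simulated data.

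The members and gene lists were chosen with earlier results of these data known. Named genes were the members, all measured enzymes and SREBP regulators, 13 genes of uptake, fatty acid synthesis and efflux, any other listed gene that was called, and the 5 nearest in profile. A few of these genes are not reported here.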

Additional observations from a re-analysis of the deposited data

How the results depend on the processing

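edgeR called 355 genes over the whole table and DESeq2 59. Of the members 0 were called, and 1 (Cyp51) with library totals implied by RPKM and 1 with TMM factors from the filtered genes. Of all 20 enzymes 2 and 1 were called under these settings, 1 of them in the mevalonate list and 1 in the sterol list (Cyp51). The implied totals shift the median of all genes up by 0.12. They called 1 gene of sterol esterification and oxidation, and moved the medians of SREBP regulators to 0.12 and of the isoprenoid branch to 0.086. DESeq2 called 0 genes of sterol uptake, where edgeR called 1. The SREBP regulator median was -0.018 with DESeq2 size factors. The median of sterol esterification and oxidation, 0.80 over 9 genes, was 0.33 at a minimum mean CPM of 2. All 9 had a fitted value above 0, against 6644 of all 13829 genes tested. K3R3 stood above both wild-type libraries for 8 of these 9, against 33.9% of genes tested, and edgeR called 0 in the main fit. Leaving out a wild-type replicate gave medians of 0.35 to 0.61 for the mevalonate list, -0.031 to 0.0082 for SREBP regulators, -0.038 to 0.23 for fatty acid synthesis and -0.31 to 0.032 for LXR targets. With implied totals the uncalled values of Lbr (0.10), Mbtps1 (0.073), Rnf139 (0.12), Faf2 (0.11) and Acaca (0.080) changed sign, and Rnf139 was 0.0012 with TMM from filtered genes. The cause was not tested. No paired analysis was possible because K3R3 has 1 library without a replicate number. K3R3 has no replicate, and Mvd and Mvk rest on few counts.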
